A study of Mus musculus with 6 samples.

Results

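The enzymes that attach glutathione, glucuronic acid or sulfate to other molecules were examined in the proximal colon of mice. They were taken by gene name: every probe set, a group of oligonucleotides read as 1 value, was included if its only gene symbol began with Gsta, Gstm, Gsto, Gstp, Gstt, Gstk, Gstz, Mgst, Ugt1, Ugt2 or Sult. This gave 49 probe sets of 38 genes among 22626 probe sets on the array. The tissue came from 3 mice with 1 gene-trapped Mthfd1 allele (genotype Mthfd1/+), called heterozygous here, and from 3 wild-type mice, with 1 array per animal. All 6 animals were 8 weeks old and had eaten a control diet (AIN-93G) for 5 weeks. Their total RNA was amplified and biotin labelled. The trap comes from a BayGenomics line; where it sits in the gene, the strain and the sex are not given in the descriptions used here. The labels describe no separation of cell types in the tissue, so the values average over epithelium, muscle and immune cells, and fewer cells of a type cannot be told apart from less RNA per cell.

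Conjugation makes reactive or fat-soluble compounds more water soluble, so that transporters can carry them out of the cell. Glutathione S-transferases use the tripeptide glutathione, UDP-glucuronosyltransferases of the endoplasmic reticulum use UDP-glucuronic acid, and cytosolic sulfotransferases use the activated sulfate PAPS. The intestinal epithelium is known as a site of such first-pass metabolism. Several of the transferase genes respond to the transcription factor Nfe2l2, which is activated by electrophiles and oxidants, or to the aryl hydrocarbon receptor Ahr. Mthfd1 encodes a cytosolic folate enzyme that supplies methyl-group and purine precursors.

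The 2 brighter probe sets of Mthfd1 checked the genotype labels. At the brightest, signal, a linear intensity scaled to a common level on each array, was 453, 509.6 and 549 in the heterozygous arrays, against 949.9, 839 and 881 in the wild-type arrays (log2 fold change -0.80, SE 0.12, limma adjusted p = 0.121). The groups did not overlap at this or at the next probe set, where the log2 fold change was -0.99 (SE 0.15, limma adjusted p = 0.108). All 8 markers of colon epithelium were above the filter on dim probe sets. Car1, a carbonic anhydrase of the colon, ran from 15443 to 19084 in heterozygous arrays and from 16365 to 16800.1 in wild-type arrays. Other markers of this list were less even. Aqp8 ran from 1128 to 3454 in heterozygous and from 668 to 2562 in wild-type arrays. Aqp4 ran from 280 to 424 in heterozygous arrays and read 461, 325 and 2078 in wild-type arrays. Krt20 read 5268.5, 7571 and 7727 in heterozygous arrays, against 7826, 7997 and 4396 in wild-type arrays. Vil1 read 3766, 5668 and 5079 in heterozygous arrays, against 5248, 5832 and 3791.5 in wild-type arrays. A probe set was tested if its mean log2 value lay at or above the 40th percentile of the array, a signal of about 93.3. Of the 49 conjugating probe sets 33 were tested, from 26 genes, and the other 16 lay below, where signal cannot be told from background without a detection measure.

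The conjugating enzymes included some of the brightest probe sets on the array. Of the 33 tested, 12 lay in the brightest decile of all tested probe sets and 18 in the brightest 2 deciles, and their median signal was 1666, against 423 over all 13576 tested probe sets. Signal depends on the probes as well as on the transcript, so the order within each class describes the array readings and not molar amounts.

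Among the cytosolic glutathione S-transferases, the brightest reading was that of Gstp1, the pi-class enzyme that acts on many electrophiles. Gstp1 read 8851, 8754 and 7646 in heterozygous arrays, against 8927, 7775 and 8169.9 in wild-type arrays. The only other pi-class gene among the 38, Gstp3, averaged 81.1 over the 6 arrays and lay below the filter. Gsto1, an omega-class enzyme that reduces dehydroascorbate, averaged 6613 at its brighter probe set. Gstk1, the kappa-class enzyme of mitochondria and peroxisomes, averaged 2436, and Gstz1, the zeta-class enzyme also known as maleylacetoacetate isomerase of tyrosine breakdown, averaged 371.

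The mu class held 12 probe sets of 7 genes, all within 1 cluster on chromosome 3 (GRCm38.p6), from Gstm5 at 107895854 to Gstm4 at 108045179. The order of the brightest probe set of each gene was Gstm1 (2781), Gstm3 (1666), Gstm5 (1275), Gstm2 (1201), Gstm4 (188), Gstm7 (127) and Gstm6 (96.9). Mu genes are close relatives, and the brightest Gstm1 probe set and a Gstm3 probe set carry the array's suffixes for sequence shared with similar transcripts, so their readings may mix genes. In the alpha class Gsta4, which detoxifies the lipid peroxidation product 4-hydroxynonenal, averaged 1387, Gsta3 142 and Gsta2 91.5, the last below the filter. In the theta class Gstt2 averaged 1038, Gstt1, known for acting on small halogenated compounds, 653, and Gstt3 581. These 3 theta genes are neighbours on chromosome 10.

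The microsomal glutathione S-transferases, membrane enzymes of a separate protein family, were bright at 1 probe set per gene. Mgst3 averaged 10309, Mgst1 6779 and Mgst2 5957 over the 6 arrays. Mgst2 and Mgst3 can also make leukotriene C4. The second probe sets of Mgst3 and Mgst1 averaged 81.4 and 8.62 and lay below the filter, so for both genes the reading rests on 1 probe set.

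Among the glucuronosyltransferases, no probe set of the Ugt1 family carried a single gene symbol, because the Ugt1a isoforms share their last exons, and the family is therefore not among the 49. Of 6 Ugt2 genes, 2 were tested. Ugt2b34 averaged 5901 and 4722 at its 2 probe sets, and Ugt2b5 averaged 1152. The brighter Ugt2b34 probe set also carries a suffix for sequence shared with similar transcripts, so its reading may mix genes. Ugt2b1, Ugt2b38, Ugt2a3 and Ugt2b37, next to them on chromosome 5, averaged at most 35.4 and were below the filter.

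The sulfotransferases spanned the widest range of any class. Sult1a1, the phenol sulfotransferase, was the brightest of all 49 probe sets and read 10667, 11384 and 11229 in heterozygous arrays, against 10324, 11244 and 10108 in wild-type arrays. It was followed by Sult1d1, which sulfates catecholamines in the mouse, at 6435 and 2882 at its 2 probe sets, Sult1b1, which sulfates thyroid hormones, at 2095, Sult1c2, a phenol sulfotransferase, at 1779.9, and Sult2b1, which sulfates cholesterol and pregnenolone, at 402. The other 6 genes averaged between 3.83 for Sult2a2 and 86.6 for Sult5a1. They included Sult1e1, the estrogen sulfotransferase, which averaged 11.6 and lies beside Sult1b1 and Sult1d1 on chromosome 5.

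**Figure D1:**
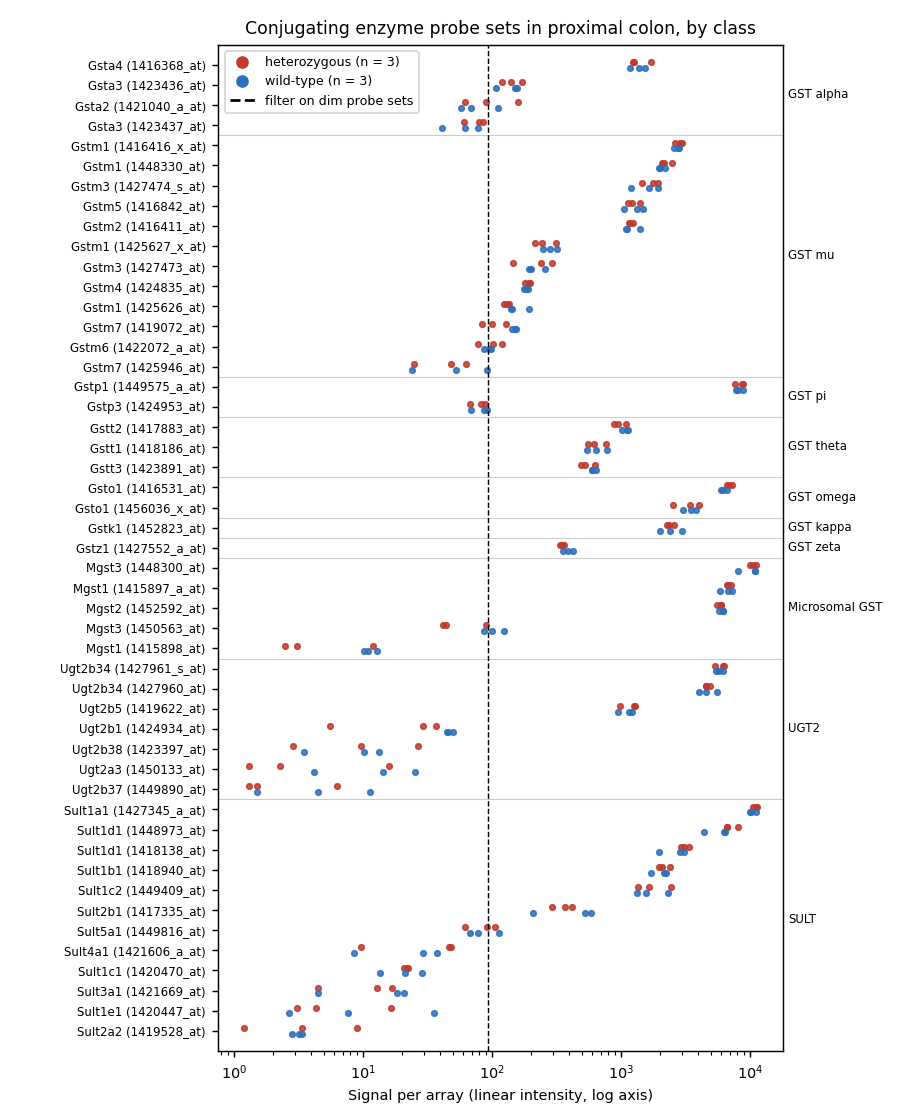
Signal of each of the 49 probe sets on each array (x axis, linear intensity on a log axis), ordered by mean signal within class, with heterozygous arrays in red above wild-type arrays in blue and the filter on dim probe sets as a dashed line. Sult1a1, Mgst3, Gstp1 and Gsto1 sit furthest to the right in their classes, and the means of 16 probe sets lie left of the line.

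The second question was whether the heterozygous colon differed from the wild-type colon in these enzymes. None of the 33 tested probe sets passed limma's test with Benjamini-Hochberg adjustment over all 13576 tested probe sets (threshold 0.05), and neither did any other probe set (0% called). The smallest adjusted p of a conjugating probe set was 0.817 (limma). At an unadjusted limma p under 0.05 there was 1 of 33 (3.03%), lower in heterozygous arrays, against 5.69% of all tested probe sets (3.12% higher and 2.56% lower). The 3 heterozygous and 3 wild-type arrays did not overlap at 3 of 33 (9.09%), 1 higher and 2 lower in heterozygous arrays, against 10.4% of all tested probe sets (5.26% higher and 5.1% lower). Both shares lie near the background. Log2 fold changes ran from -0.47 to 0.33 with a median of 0.03, against a median of 0.00 over all tested probe sets, and 20 were positive and 13 negative.

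Gstm7 was the 1 probe set with an unadjusted limma p under 0.05. It read 84.4, 129.8 and 100.5 in heterozygous arrays, against 151, 155 and 142 in wild-type arrays. All 3 heterozygous values lay below all 3 wild-type values, and the log2 fold change was -0.47 (SE 0.18, 95% interval -0.88 to -0.05, limma unadjusted p = 0.0305, adjusted p = 0.817). The signal is close to the filter, and a second Gstm7 probe set, below it, read 48.4, 25 and 63.6 in heterozygous and 52.8, 91.5 and 24.1 in wild-type arrays, which overlap. The unadjusted p was 0.107 without heterozygous replicate 1 and between 0.0122 and 0.0784 without each of the other arrays in turn, and the log2 fold change stayed between -0.61 and -0.34. Its neighbour Gstm5 had a log2 fold change of -0.03 (SE 0.15) and Gstm6 of 0.07 (SE 0.20).

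Sult1d1 had the largest positive difference. Its brighter probe set read 6725, 8085 and 6628 in heterozygous arrays, against 6317, 6446 and 4406 in wild-type arrays. The groups did not overlap, although the lowest heterozygous and the highest wild-type value were close (log2 fold change 0.33, SE 0.15, 95% interval -0.00057 to 0.67, limma unadjusted p = 0.0503, adjusted p = 0.874). Its other probe set read 2945, 3373 and 3076 in heterozygous arrays, against 2862, 3074 and 1966 in wild-type arrays, and overlapped (log2 fold change 0.27, SE 0.16, limma adjusted p = 0.912). Wild-type replicate 3 was the lowest array at both, and without it the log2 fold changes were 0.16 and 0.08.

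The third probe set without overlap was the dimmest of 4 for Gstm1, the main mu-class enzyme of mouse liver. It read 130.1, 135 and 124 in heterozygous arrays, against 141, 142 and 195 in wild-type arrays (log2 fold change -0.26, SE 0.17, limma adjusted p = 0.916). The 2 brightest Gstm1 probe sets pointed the other way, at 0.05 (SE 0.09) and 0.12 (SE 0.11), and the remaining one had -0.15 (SE 0.17). The 2 probe sets of Gsto1 also differed in sign, at 0.14 (SE 0.08) and -0.07 (SE 0.16), with overlapping groups at both.

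By class, the median log2 fold change was 0.05 for the 2 tested alpha probe sets, 0.01 for 11 mu, -0.15 for 3 theta, 0.03 for 2 omega, 0.04 for 3 microsomal, 0.03 for 3 Ugt2 and 0.08 for 6 Sult probe sets. The single probe sets of the pi, kappa and zeta classes had 0.02, -0.02 and -0.13. All 3 theta genes had negative values, from -0.16 for Gstt3 to -0.02 for Gstt1, and none had an unadjusted limma p under 0.245. Gstz1 is the only one of the 38 genes on the chromosome of Mthfd1, number 12, where it lies 10.83 Mb away (87147161 to 87164723, GRCm38.p6). It read 354, 341 and 364 in heterozygous arrays, against 425, 389.8 and 355 in wild-type arrays, and the groups overlapped (limma adjusted p = 0.937).

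The intervals give the sizes of difference that are compatible with these arrays. For 27 of 33 probe sets (81.8%) the 95% interval lay within a 1.5-fold change of signal + 16 in either direction, and for all 33 within 2-fold. Over all tested probe sets it lay within 1.5-fold for 71.3%, and within 2-fold for 13019 of 13576. Intervals were narrow for some bright enzymes, such as -0.08 to 0.23 for Sult1a1, -0.17 to 0.21 for Gstp1 and -0.21 to 0.12 for Mgst2. Other bright ones had wider intervals, such as -0.00057 to 0.67 for the brighter Sult1d1 probe set and -0.48 to 0.61 for Sult1c2. The interval lay within 1.5-fold for 2 of 6 tested Sult probe sets and 9 of 11 mu probe sets. In every other class it did so for all tested probe sets. The widest was that of Sult2b1, from -0.93 to 0.57.

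**Figure D2:**
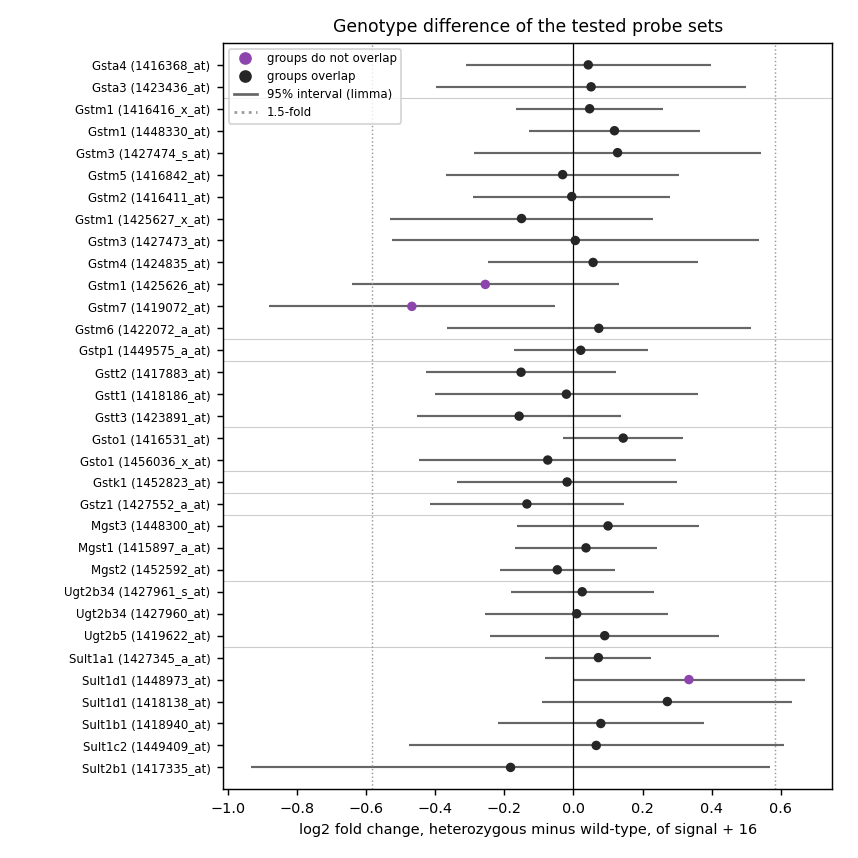
Log2 fold change of signal + 16, heterozygous minus wild-type (x axis), for the 33 tested probe sets, with 95% intervals from limma as bars, purple points where the groups do not overlap and dotted lines at 1.5-fold. Gstm7 lies furthest left at -0.47 and the brighter Sult1d1 probe set furthest right at 0.33.

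Stretches before the start are shown for Gstm7 and Sult1d1, at the ends of this range, for Gstm5, a neighbour of Gstm7 in the mu cluster, and for Sult1c2 and Sult2b1, which stood furthest above the spread of probe sets of like signal. The 250 bases before the start come from RefSeq (GRCm38.p6), which listed a promoter for 34 of the 38 genes, and where its table lists several starts of a gene the most upstream of them is given (for Gstm7 and Sult2b1 it lies inside the span of the gene in the RefSeq gene table), 5′ to 3′ on the strand of the gene.
Gstm7 (chr3:107931818-107932067, strand -): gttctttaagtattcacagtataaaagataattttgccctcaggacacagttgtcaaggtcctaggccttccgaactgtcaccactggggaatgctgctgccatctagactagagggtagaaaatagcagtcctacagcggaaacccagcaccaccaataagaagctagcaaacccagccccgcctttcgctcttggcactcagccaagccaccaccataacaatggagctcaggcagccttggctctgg
Gstm5 (chr3:107895604-107895853, strand +): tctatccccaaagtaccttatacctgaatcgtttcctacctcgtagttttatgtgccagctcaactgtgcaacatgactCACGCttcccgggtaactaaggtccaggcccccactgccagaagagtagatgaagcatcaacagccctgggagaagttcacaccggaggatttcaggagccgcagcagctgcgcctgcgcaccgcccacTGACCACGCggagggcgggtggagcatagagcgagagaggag
Sult1d1 (chr5:87569007-87569256, strand -): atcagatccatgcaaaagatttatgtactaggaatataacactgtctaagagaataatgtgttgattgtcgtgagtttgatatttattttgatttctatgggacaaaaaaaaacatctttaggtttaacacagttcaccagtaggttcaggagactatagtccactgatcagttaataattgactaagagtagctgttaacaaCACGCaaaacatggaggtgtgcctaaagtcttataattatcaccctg
Sult1c2 (chr17:53845959-53846208, strand -): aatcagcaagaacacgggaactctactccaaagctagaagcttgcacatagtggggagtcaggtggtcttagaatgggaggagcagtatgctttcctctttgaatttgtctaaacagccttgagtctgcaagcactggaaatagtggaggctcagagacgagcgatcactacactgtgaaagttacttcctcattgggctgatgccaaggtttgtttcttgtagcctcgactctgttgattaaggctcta
Sult2b1 (chr7:45759613-45759862, strand -): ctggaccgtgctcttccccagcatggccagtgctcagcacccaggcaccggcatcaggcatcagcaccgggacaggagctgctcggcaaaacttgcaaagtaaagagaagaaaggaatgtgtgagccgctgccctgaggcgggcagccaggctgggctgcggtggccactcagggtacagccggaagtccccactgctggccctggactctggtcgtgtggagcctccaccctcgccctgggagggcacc

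Capitals mark the core letters of the antioxidant response element bound by Nfe2l2 (TGACNNNGC) and of the xenobiotic response element bound by the aryl hydrocarbon receptor complex (GCGTG), each searched on both strands. Gstm5 held the first at positions -42 to -34 and the second at -171 to -167 and at -38 to -34, where the motifs overlap. Sult1d1 held the second at -47 to -43. The antioxidant core lay in these 250 bases for 4 of 34 conjugating genes (Gsta3, Gstm5, Gstm7 and Mgst1), against 11.52% of all 27025 genes in the table, and in Gstm7 it lies before another listed start, outside the stretch printed. The xenobiotic core was found for 9 of 34, against 30.85% of all genes, and in Sult2b1, 1 of the 9, it likewise lies before another listed start. A match describes letters and not binding, and the tested genes with the antioxidant core did not share a direction: Gsta3 had a log2 fold change of 0.05, Gstm5 of -0.03, Gstm7 of -0.47 and Mgst1 of 0.04.

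The spread between animals of the same genotype was described beside that of all tested probe sets. The SD of log2(signal + 16) within genotype had a median of 0.19 over the 33 probe sets, against 0.18 over all tested probe sets, and ranged from 0.05 for Mgst2 to 0.58 for Sult2b1. Since dim probe sets vary more, each was also set beside the tested probe sets in its decile of signal. There 17 of 33 lay above the median of their decile and 11 above its upper quartile. The ratio of the highest to the lowest array, taken on signal + 16, had a median of 1.39 over the conjugating probe sets and 1.40 over all tested ones. It exceeded 2 for 1 of 33, Sult2b1, and for 8.12% of all tested probe sets.

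Sult2b1 read 294, 416 and 367 in heterozygous arrays, against 531, 592 and 209 in wild-type arrays. Wild-type replicates 1 and 2 were the highest and wild-type replicate 3 the lowest of the 6, a ratio of 2.70. The SD within genotype was 0.58, which is 3.13 times the median of its decile, and 0.21 without wild-type replicate 3.

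Sult1c2 varied in another order. It read 2442, 1655 and 1372 in heterozygous arrays, against 1574, 1331 and 2305 in wild-type arrays, so heterozygous replicate 1 and wild-type replicate 3 stood above the other 4. The SD within genotype was 0.41, or 2.74 times the median of its decile. It was 0.35 when heterozygous replicate 1 was left out and 0.36 when wild-type replicate 3 was. Gsta4, Gsta3, Gstt1, Gstm5, Gstt3 and the dimmer Ugt2b34 probe set were highest in the same 2 arrays. Gsta4 read 1725 and 1529 there and at most 1381 elsewhere, and Gsta3 172 and 158 there and at most 152 elsewhere. Gstt1 read 770.2 and 783 there and at most 639.6 elsewhere, and Gstm5 1410 and 1491.5 there and at most 1327 elsewhere. Gstt3 read 631 and 641 there and at most 600 elsewhere, and the Ugt2b34 probe set 4950 and 5577 there and at most 4622 elsewhere.

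Wild-type replicate 3 was the lowest array for 11 of the 33 conjugating probe sets (33.3%), against 15.4% of all tested probe sets, and for 5 of the 6 tested Sult probe sets. Heterozygous replicate 2 was the highest array for 10 of the 33 (30.3%), against 10.7% of all tested probe sets, and wild-type replicate 2 the lowest for 9 (27.3%), against 18.9%. Besides Sult2b1 and Sult1d1, Mgst3 was low in wild-type replicate 3, at 8076. It read 10113 to 11171 in heterozygous arrays and 10939.7 and 10979 in the other wild-type arrays. Its SD within genotype was 0.19, and 0.06 without wild-type replicate 3. The brighter Gstm3 probe set read 1462, 1958 and 1769 in heterozygous arrays, against 1953, 1659.7 and 1194 in wild-type arrays. The dimmer one was lowest in heterozygous replicate 1 instead, at 147 against 196 to 293 in the other arrays. The dimmer Gsto1 probe set read 3433, 4062 and 2546 in heterozygous arrays, against 3519, 3850.1 and 3064 in wild-type arrays, whereas the brighter one varied 1.21-fold on signal + 16, so its spread was not shared between the probe sets of the gene. The dimmer Gsto1 probe set also carries a suffix for shared sequence. Without wild-type replicate 3 the median SD over the tested conjugating probe sets was 0.13.

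Markers of ileal enterocytes, the absorptive cells just upstream of the colon, also varied between arrays. Their mean log2 deviation over 13 measured markers was -0.71, 0.76 and -0.48 in heterozygous arrays, against 0.34, 1.11 and -1.02 in wild-type arrays, and their summed signal ran from 14288 to 30895 in heterozygous and from 12122 to 38560 in wild-type arrays. Of the 13, 9 lay above the filter on dim probe sets, and none was listed at 0. Fabp2 alone gave 7714 of the summed signal in wild-type replicate 3. The markers did not all share the order of the score: Fabp1, below the filter, was highest in wild-type replicate 3 (102). The lowest mean deviations belonged to wild-type replicate 3 and heterozygous replicate 1. These arrays were highest for Sult1c2, Gsta4, Gsta3, Gstt1, Gstm5, Gstt3 and the dimmer Ugt2b34 probe set. Between the genotypes the ileal score gave an exact permutation p of 0.8 (two-sided). The 8 colon epithelium markers had mean deviations of -0.25, 0.07 and 0.10 in heterozygous arrays, against 0.04, 0.10 and -0.07 in wild-type arrays. These too were lowest in heterozygous replicate 1 and wild-type replicate 3. Smooth muscle markers were highest in wild-type replicate 3 and next in heterozygous replicate 1, with summed signals of 36872 and 30214 over 5 markers. Their sums were 22882 and 24633 in the other heterozygous arrays and 24459 and 27304 in the other wild-type arrays. Adipocyte markers, 3 measured of 5, were lowest in wild-type replicate 3, with a summed signal of 10912. Their sums were 12354 to 15670.0 in heterozygous arrays and 16292 and 17594 in the other wild-type arrays. Leukocyte markers, 5 measured of 6, summed to 6382 to 10352 in heterozygous arrays and to 5255 to 5764 in wild-type arrays (exact permutation p = 0.1 for their score, the smallest that 3 against 3 arrays allow). H2-Aa alone gave 3512 to 6064 of these sums in heterozygous and 2527 to 3024 in wild-type arrays. The groups did not overlap for Ptprc, H2-Aa and Itgax, and they overlapped for Cd3d and Lyz2. Whether the share of these cells contributes to the spread or to the genotype values of the conjugating enzymes was not tested, beyond a fit with the ileal score as a covariate, in which none of the 33 passed and the log2 fold changes of Sult1d1 were 0.40 and 0.34 (limma adjusted p = 0.236 and 0.45).

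**Figure D3:**
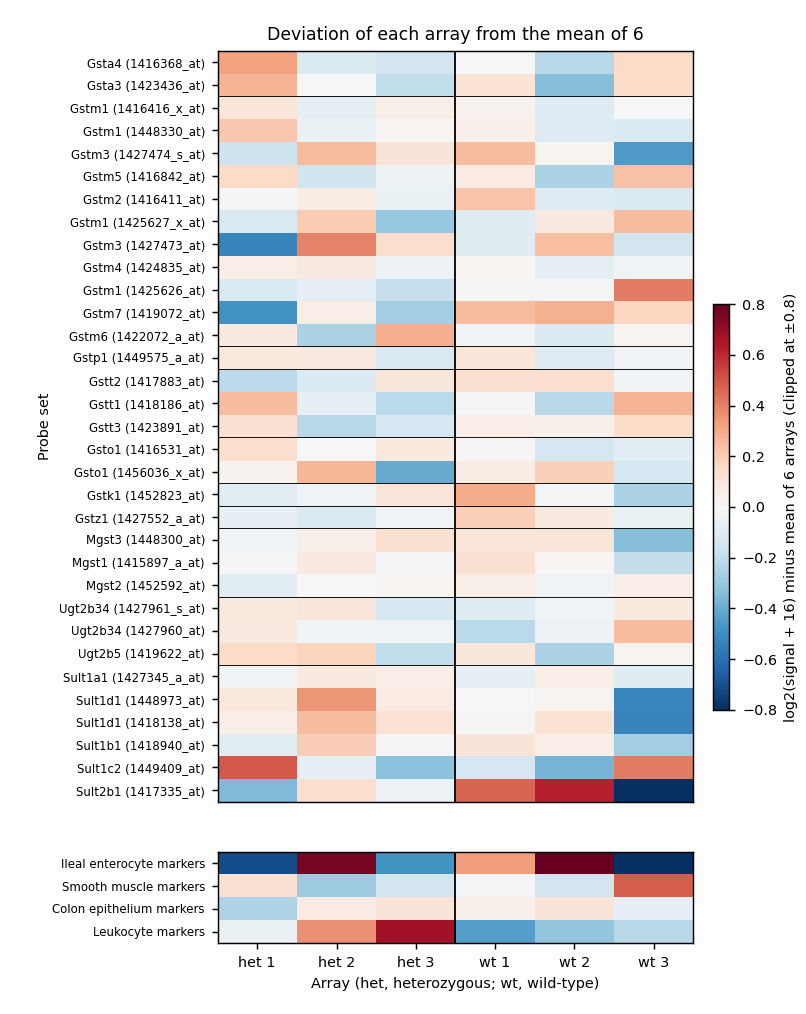
Deviation of log2(signal + 16) of each array from the mean of the 6 arrays (colour, clipped at ±0.8) for the 33 tested probe sets by class, above the mean deviation of 4 marker lists. Columns are heterozygous (het) replicates 1 to 3 and wild-type (wt) replicates 1 to 3. Sult2b1, Sult1d1 and Mgst3 are lowest in wild-type replicate 3, and Sult1c2 is highest in heterozygous replicate 1.

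At the other end, several enzymes read nearly the same in all 6 animals. Mgst2 read 5626, 5949 and 6007 in heterozygous arrays, against 6159, 5831 and 6173 in wild-type arrays, a spread of 1.10-fold on signal + 16. On the same scale Gstm4 varied 1.11-fold, Sult1a1 1.13-fold, the brightest Gstm1 probe set 1.15-fold and Gstp1 1.17-fold.

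**Figure D4:**
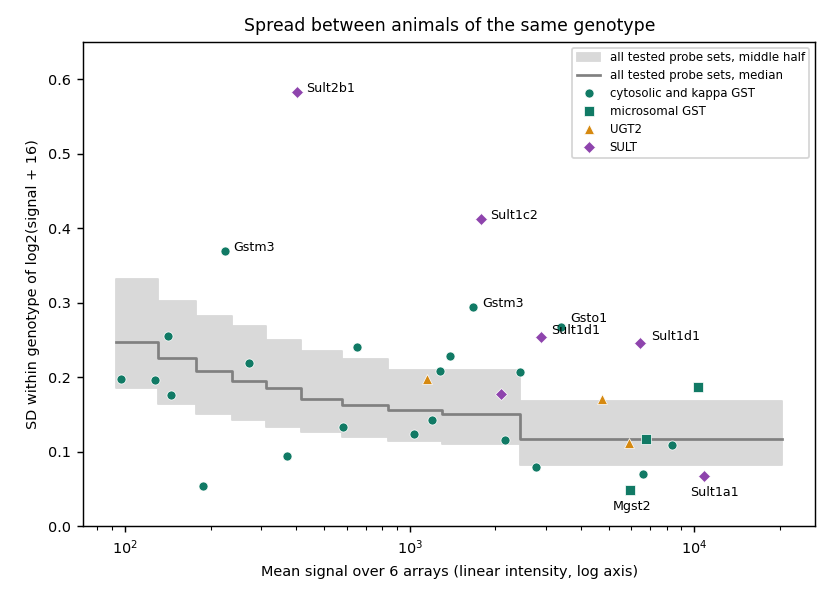
SD within genotype of log2(signal + 16) (y axis) against mean signal over the 6 arrays (x axis, log scale) for the 33 tested probe sets, over the median and interquartile range of all tested probe sets in each decile of signal (grey). Sult2b1 at 0.58 and Sult1c2 at 0.41 stand above the grey band, and Mgst2 at 0.05 below it.

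Genes that supply, regulate or follow conjugation were read from the same fit, 1 probe set per gene. Of 49 listed genes 42 were named by a single-symbol probe set and 35 were tested. None passed the adjusted test, 1 of 35 had an unadjusted limma p under 0.05 (5.69% of all tested probe sets did), and the groups did not overlap at 4 (10.4% of all tested probe sets). The median log2 fold change was -0.03.

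Among 11 tested genes of cofactor supply, 5 had positive values. Ugdh, which makes UDP-glucuronic acid, read 7844, 9164 and 7436 in heterozygous arrays, against 8030.0, 8617 and 8336 in wild-type arrays. Papss2, which makes PAPS, averaged 8768 over the 6 arrays and was lowest in wild-type replicate 3 (6597), and Papss1, of the same function, had the smallest p of this role (log2 fold change -0.23, SE 0.12, limma adjusted p = 0.910). The glutathione reductase Gsr read 856, 859 and 955 in heterozygous arrays, against 848, 689 and 778 in wild-type arrays, without overlap (log2 fold change 0.21, SE 0.12, limma adjusted p = 0.916).

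Of 13 tested regulators 7 had positive values. Keap1, the adaptor that holds Nfe2l2 for degradation, read 613, 619 and 598 in heterozygous arrays, against 656, 658 and 658 in wild-type arrays. The groups did not overlap and the difference was small (log2 fold change -0.10, SE 0.11, limma adjusted p = 0.947). Nfe2l2 itself had 0.08 (SE 0.10), Ahr 0.16 (SE 0.15) and the bile acid receptor Nr1h4, whose groups did not overlap either, 0.21 (SE 0.12, limma adjusted p = 0.916). A separate list of 7 Nfe2l2 target genes had 4 tested, Nqo1, Srxn1, Txnrd1 and Osgin1, with log2 fold changes between -0.03 and 0.07. That list left out the genes counted under cofactor supply. Among those, Gclc had -0.22 (SE 0.14) and Gclm 0.19 (SE 0.11), both with overlapping groups, and Gsr 0.21 (SE 0.12).

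Of 4 tested exporters 1 had a positive value. Abcc1, which exports glutathione conjugates, read 596, 696 and 508 in heterozygous arrays, against 697, 805 and 753 in wild-type arrays. The groups touched without overlap at 696 and 697, and the log2 fold change was -0.33 (SE 0.14, limma unadjusted p = 0.0471, adjusted p = 0.873). Leaving out single arrays gave log2 fold changes from -0.44 to -0.22, and an unadjusted limma p of 0.177 for heterozygous replicate 3, 0.131 for wild-type replicate 2, 0.0865 for heterozygous replicate 1, 0.0831 for wild-type replicate 3, 0.0485 for wild-type replicate 1 and 0.0185 for heterozygous replicate 2. Abcg2, which exports sulfate conjugates, was lowest in wild-type replicate 3 (1122), against 1765, 2214 and 2110.3 in heterozygous arrays and 1879 and 2477 in the other wild-type arrays. Among 3 tested deconjugating enzymes, Ggh, which trims glutamate chains from folates, had the smallest p (log2 fold change -0.33, SE 0.19, limma adjusted p = 0.911), and Gusb, the glucuronidase of lysosomes, had 0.04 (SE 0.12).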

How the data were processed

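The deposited table holds, for 6 biotin-labelled arrays, an intensity for each probe set on a linear scale. It was made with GCOS, the array maker's software, per the submitters' processing notes, which name no version or setting. In the deposited intensities the mean of each array without the top and bottom 2% of probe sets was 500.2, a common scale, and they were used without further normalization. There is no detection or background column, and the number of arrays limits the precision. The 64 control probe sets were left out. Names came from the platform annotation (20380 probe sets with 1 symbol, 691 with several, 1555 with none), and positions from the RefSeq gene table of GRCm38.p6, matched by gene number for all 38 genes.

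Values entered as log2(signal + 16), which understates changes of dim genes. Probe sets with a mean log2 value below the 40th percentile were left out. The difference, heterozygous minus wild-type, was fitted by limma 3.58.1 (R 4.3.3; lmFit, then eBayes with trend on), two-sided, and p-values were adjusted by the Benjamini-Hochberg method over 13576 probe sets. Marker scores were compared by an exact permutation test. The steps were tested on simulated data. The genes, lists, named-gene rule (brightest of each class, unadjusted p under 0.05, no overlap, most variable, probe sets of opposite sign) and alternatives were chosen with earlier results of these data known. Animals are separate by their titles. Each limma p-value sets the genotype difference against the spread between animals, which limma adjusts toward that of probe sets of like signal.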

Additional observations from a re-analysis of the deposited data

How the results depend on the processing

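None of the 33 tested conjugating probe sets, and none of the 35 tested partner genes, passed the adjusted threshold under any of the 19 alternatives, and the lowest adjusted p of a conjugating probe set was 0.236. Over all tested probe sets the count of 0 became 8 with a robust variance, 4 with array weights, 10 with the ileal score as a covariate, 2 with the brightest probe set per gene, 8 at an adjusted p under 0.1 and 0 to 39 when single arrays were left out (39 without heterozygous replicate 1, 2 without wild-type replicate 3). The count at an unadjusted p under 0.05 was 772 over all probe sets, with 1395 without the filter, 443 with the 60th percentile filter, 451 with the brightest probe set per gene and 439 to 1038 without single arrays. Among the conjugating probe sets this count was 1, and it was 2 without the filter, with quantile normalization, with a robust variance and with the replicate block, 3 with the ileal covariate, 0 with the 60th percentile filter and 0 to 2 without single arrays. The replicate block, which pairs animals by number, left 0 probe sets past the adjusted threshold. Deviations of same-numbered animals correlated at -0.12, 0.49 and 0.04. The labels do not say whether equal numbers mark a pair, and these values cannot decide it. The median spread of the conjugating probe sets, 0.187, became 0.213 without the filter and 0.131 to 0.194 without single arrays. That of all probe sets, 0.180, became 0.188 and 0.158 with pseudocounts of 1 and 64, 0.227 without the filter, 0.161 with the 60th percentile filter and 0.168 to 0.179 without single arrays. The mu-class median ran from -0.06 to 0.07 without single arrays.

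Of the 33 probe sets 15 kept their direction under every alternative run, among them Gstm7, both Sult1d1 probe sets, Gstt2, Gstt3, Gstz1, Sult1a1 and Mgst2. Many alternatives leave the fold change as it was by construction: the filters, the variance settings, the replicate block, the brightest probe set and the looser threshold. Direction could change only with the pseudocounts, quantile normalization, array weights, the ileal covariate and left-out arrays. With the ileal covariate Gsta4 became -0.0055, Gstm2 0.0073, Gstk1 0.0072, the dimmer Ugt2b34 probe set -0.0239 and Sult1c2 -0.0197, and with array weights Gstt1 became 0.0032. Without single arrays the log2 fold change ran from -0.0505 to 0.11 for Mgst1, -0.0465 to 0.17 for Mgst3, -0.11 to 0.13 for Gsta4, -0.11 to 0.16 for Gsta3, -0.0639 to 0.11 for Gstm2, -0.17 to 0.0777 for Gstm5, -0.0676 to 0.28 and -0.19 to 0.27 for the brighter and dimmer Gstm3 probe sets, -0.15 to 0.11 for Gstt1, -0.0241 to 0.0886 for Gstp1, -0.15 to 0.13 for Gstk1, -0.23 to 0.11 for the dimmer Gsto1 probe set, -0.0169 to 0.10 and -0.0956 to 0.13 for Ugt2b34, -0.013 to 0.21 for Ugt2b5, -0.0393 to 0.15 for Sult1b1, -0.16 to 0.29 for Sult1c2 and -0.63 to 0.0824 for Sult2b1. The cause was not tested. The filter on the linear mean was added after seeing the data. The files hold no detection call, so signal over background is unknown for the dim probe sets, and 3 animals per genotype cannot reach an exact permutation p below 0.1.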

Other observations

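The Ugt1a locus, whose isoforms glucuronidate bilirubin, phenols and steroids, was read by 3 probe sets that name 8 isoforms together and stand outside the single-symbol genes above. The brightest read 15739, 15778 and 14914 in heterozygous arrays, against 15501, 15636 and 13811 in wild-type arrays, which is above the signal of Sult1a1. Its log2 fold change was 0.05 (SE 0.07), and those of the other Ugt1a probe sets were 0.07 (SE 0.08) and 0.08 (SE 0.08). The groups overlapped at all 3, and which isoforms were transcribed cannot be read from shared exons.

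A probe set shared by Gsta1, Gsta2 and Gm3776 read 857, 933 and 744 in heterozygous arrays, against 1082, 1117 and 498 in wild-type arrays. Wild-type replicate 3 was the lowest and the other wild-type arrays the highest, as for Sult2b1. The log2 fold change was -0.01 (SE 0.27). The SD within genotype was 0.47, and 0.13 without wild-type replicate 3. The single-symbol Gsta2 probe set, below the filter, was highest in heterozygous replicate 1 (159.9), at 89.6 and 62.0 in the other heterozygous arrays, against 69.3, 57.6 and 110.9 in wild-type arrays.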
